A study of Mus musculus with 50 samples.

Results

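The sirtuins are a family of 7 NAD-dependent enzymes in the mouse, *Sirt1* to *Sirt7*, and all 7 were found by gene symbol among the 24552 genes of the deposited count tables. They were examined in RNA from the nucleus accumbens (NAc) of mice of the RiboTag (RT) line, in which a Cre recombinase switches on an HA-tagged form of the ribosomal protein Rpl22. In RT; D1-Cre mice the tag is carried by cells in which the D1-Cre transgene (a bacterial artificial chromosome) is active, and in RT; D2-Cre mice by those of the D2-Cre transgene. These are mainly the D1- and the D2-type medium spiny neurons (MSNs). An antibody against HA pulls down ribosomes with their mRNA from these cells (IP samples). The rest of the homogenate, with RNA of all cells of the tissue, gave the input samples. These C57BL/6 mice, aged 8 to 12 weeks, met an aggressive mouse for 10 min per day over up to 10 days (per the labels; the methods of the study give a shorter daily time) and were then sorted by social interaction into susceptible (Sus) and resilient (Res), whereas controls (Con) were housed with their own strain. There were 13 D1-IPs (4 Con, 4 Res, 5 Sus), 15 D2-IPs (5 per stress group) and 18 inputs (3 per stress group in each line), each made from tissue of 2 pooled mice. A further 4 D1-IPs were labelled Sirt1-KO: they came from undefeated male controls of the genotype RT; Sirt1-floxed; D1-Cre, and were set against the 4 D1-IP Con libraries, whose counts are identical in both tables. The labels give neither the floxed part of *Sirt1*, nor whether both alleles were floxed, nor the age of these mice.

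Sirtuins remove acyl groups from lysines and use up NAD, so that their activity follows the energy state of the cell. Sirt1, Sirt6 and Sirt7 act mainly in the nucleus, Sirt2 mainly in the cytoplasm, and Sirt3, Sirt4 and Sirt5 in mitochondria. In brain, Sirt2 is best known as a deacetylase of tubulin that is abundant in myelin-forming oligodendrocytes, and Sirt1 in the NAc of mice has been linked to anxiety- and depression-like behavior.

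*Sirt1* encodes a deacetylase of histones and transcription factors. It is the member that the floxed line was made to remove, so the sequence upstream of its start is shown. It lies at chr10:63319005-63381704 on the minus strand (GRCm38, the assembly called mm10). The 235 bases at chr10:63339051-63339285, from the RefSeq window of 250 bases before the start (GRCm38.p6) without its last 15 bases, which GENCODE counts as exon, lie inside the longer GENCODE gene, upstream of the start that RefSeq uses, and read 5′ to 3′ on the minus strand:
Sirt1 upstream: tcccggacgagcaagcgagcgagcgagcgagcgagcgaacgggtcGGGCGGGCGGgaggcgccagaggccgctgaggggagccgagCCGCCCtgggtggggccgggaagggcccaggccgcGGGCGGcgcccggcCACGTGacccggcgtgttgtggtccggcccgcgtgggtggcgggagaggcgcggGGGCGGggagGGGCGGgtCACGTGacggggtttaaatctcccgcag
Capitals mark GC boxes (GGGCGG on either strand, 6 matches, of which 2 overlap) and E-boxes (CACGTG, 2 matches). The stretch holds 36 CpG and is 78.3% G or C. A GC box was found in 32.7% and an E-box in 6.02% of 32851 RefSeq windows of 250 bases, whose median was 6 CpG. These matches describe the letters and were not tested as sites.

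Among the other nuclear members, *Sirt6*, a histone deacetylase of chromatin and DNA repair, lies at chr10:81621785-81627797 (minus strand), and *Sirt7*, a nucleolar deacetylase, at chr11:120618372-120625240 (minus strand). The cytoplasmic *Sirt2* lies at chr7:28766735-28788661 (plus strand). The mitochondrial members are *Sirt3*, the main mitochondrial deacetylase, at chr7:140863666-140882309 (minus strand), *Sirt4*, known as an ADP-ribosyltransferase and lipoamidase, at chr5:115478010-115484725 (minus strand), and *Sirt5*, which removes succinyl and malonyl groups, at chr13:43365496-43395203 (plus strand). Counts cover the exons of a gene, and some exons overlap those of a neighbor. *Sirt3* shares 418 exonic bases with *Ric8a* and 342 with *Psmd13*, and *Sirt2* shares 42 with *Nfkbib*, all on the opposite strand. *Sirt7* shares 124 bases with *Mafg* and 54 with *Mir6936* on the same strand, and *Sirt1* shares 65 with the antisense gene *Gm16145*. The strand setting of the counting is not given in the sources used here, so reads of these stretches are uncertain. *Dnajc12*, *Rinl*, *Ankrd24* and *Pcyt2* lie within 1000 bases of *Sirt1*, *Sirt2*, *Sirt6* and *Sirt7* without overlap. The distance of *Dnajc12* is taken from the end of the longer GENCODE gene of *Sirt1*, not from the stretch printed above.

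Libraries held 18384265 to 31785984 counts on genes, and the sirtuins 96 (*Sirt6*) to 3218 (*Sirt2*) counts each. The labeled cell types were checked by summed normalized counts, in counts per 1e6 (CPM). Of 4 D1-MSN markers (*Drd1*, *Chrm4*, *Pdyn*, *Tac1*), 4 were higher in D1-IPs than in D2-IPs, with sums of 1101 to 1553 against 396 to 638 CPM, and 4 of 4 D2-MSN markers (*Drd2*, *Adora2a*, *Gpr6*, *Penk*) were lower, with 2061 to 3471 against 5647 to 7999 CPM. D2-MSN markers were also higher in D1-IPs than in D1-inputs, which summed to 776 to 1324 CPM. D1-IPs further held 381 to 1349 CPM of 4 cortical excitatory neuron markers, against 21.2 to 292 in D2-IPs, and 8.32 to 29.3 CPM of 4 cholinergic interneuron markers, against 67.8 to 125. Mean sums in D1-IPs were 225% of D1-inputs for D1-MSN, 243% for D2-MSN and 167% for cortical markers. In D2-IPs they were 93.0%, 706% and 29.3% of D2-inputs. Cholinergic interneuron markers stood at 21.3% of the inputs in D1-IPs and at 127% in D2-IPs. Cortical sums spread widely in D1-inputs, from 212 to 1065 CPM. The 8 oligodendrocyte markers fell from 1881 to 3123 CPM in inputs to 238 to 545 CPM in IPs. No marker of these lists was at 3 counts or fewer in every library of a class. In these bulk samples, fewer cells of a type and less RNA per cell cannot be told apart.

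*Sirt2* was the most abundant sirtuin in every class of library. Levels were compared between genes per kilobase of exon (RPKM, from the normalized counts and the length of all annotated exons). *Sirt2* stood at 10.1 ± 0.619 RPKM (SD, n = 13) in D1-IPs, 9.95 ± 0.670 (n = 15) in D2-IPs, 22.3 ± 1.55 (n = 9) in D1-inputs and 22.2 ± 1.17 (n = 9) in D2-inputs. Its range did not overlap that of the next member in any of them. In both IPs the next was *Sirt3*, at 4.41 ± 0.596 RPKM in D1-IPs and 3.83 ± 0.400 in D2-IPs. Then came *Sirt7*, *Sirt1* and *Sirt4* within 2.62 to 2.90 RPKM in D1-IPs and 3.03 to 3.28 in D2-IPs, then *Sirt6* at 2.15 and 2.07, and last *Sirt5* at 1.75 and 1.69. Below *Sirt3* the ranges of neighbors overlapped in both IPs, and in D2-IPs that of *Sirt3* overlapped that of *Sirt7* too. By this length the order differed in inputs. There *Sirt4* came after *Sirt2*, at 6.95 ± 0.499 RPKM in D1-inputs and 6.37 ± 0.687 in D2-inputs, followed by *Sirt7*, *Sirt3* and *Sirt6* with overlapping ranges. *Sirt1*, at 3.36 and 3.02 RPKM, was sixth in both inputs, and *Sirt5*, at 1.45 and 1.24, was lowest and apart from it. With the length of the longest transcript in place of all exons, *Sirt2* kept the first rank, but *Sirt5* was the fourth in both IPs and *Sirt6* the last. In both inputs *Sirt3* then took rank 2, as in both IPs, and *Sirt4* rank 4. The order below *Sirt2*, with the place of *Sirt4* right after it in inputs, thus rests on the length used.

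**Figure D1:**
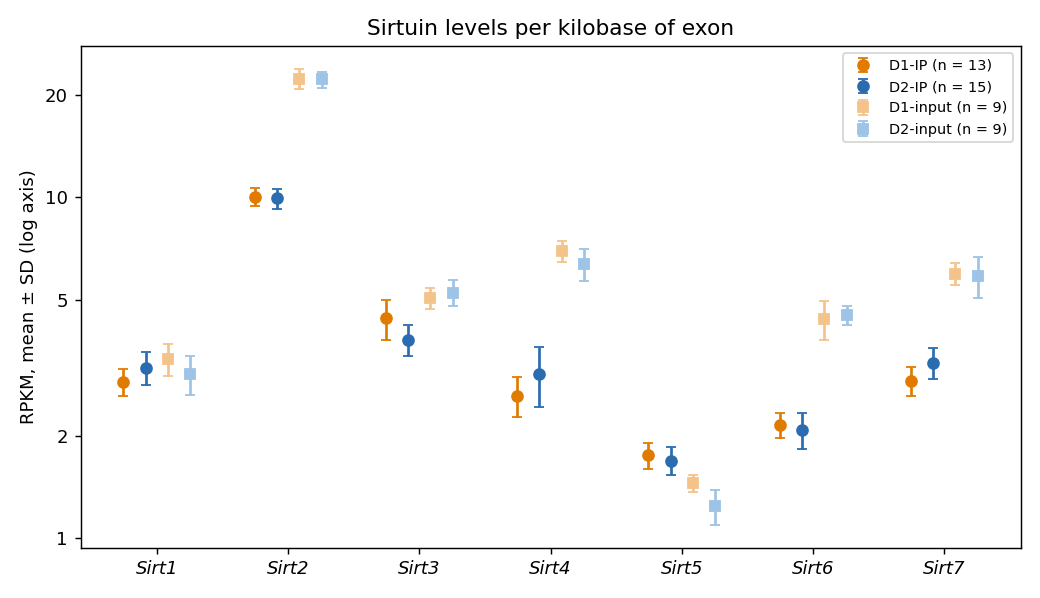
Level of each sirtuin in RPKM (log axis) as mean ± SD over the libraries of D1-IPs, D2-IPs, D1-inputs and D2-inputs. *Sirt2* lies near 10 RPKM in both IPs and near 22 in both inputs, above all other members.

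The first comparison asked how sirtuin mRNA on MSN ribosomes relates to that of the whole tissue. *Sirt2*, *Sirt4*, *Sirt6* and *Sirt7* fell to 0.376 to 0.559 times the input level in both lines, *Sirt5* rose, *Sirt3* fell by less, and *Sirt1* fell in the D1 line alone by the test used. That test was edgeR's quasi-likelihood test with Benjamini-Hochberg adjustment over 15404 genes, with calls at an adjusted p under 0.05. All 7 members were called in the D1 line and 6 in the D2 line, beside 81.9% and 82.7% of all genes tested, so these counts alone do not set the family apart. The median log2 fold change of all genes was -0.04 in D1 and -0.08 in D2.

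*Sirt2* held a lowest value of 45.1, a median of 50.4 and a highest of 54.9 CPM in D1-IPs, against 102, 112 and 126 CPM in D1-inputs. In D2-IPs the corresponding values were 44.4, 50.4 and 55.1 CPM against 101, 113 and 119 CPM in D2-inputs. The groups lay wide apart, and IPs of both lines held nearly the same level. The log2 fold change was -1.15 (SE 0.0403, adjusted p = 1.1e-26) in D1 and -1.16 (SE 0.0387, adjusted p = 2.27e-27) in D2, or 2.23-fold lower in each.

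*Sirt4* ran from 4.76 through a median of 6.42 to 7.60 CPM in D1-IPs and from 15.1 through 16.5 to 19.4 CPM in D1-inputs. The D2 line had 5.03, 7.16 and 10.1 CPM in IPs and 12.2, 15.8 and 17.4 CPM in inputs. This member showed the largest fall of the family in D1, by 1.41 on the log2 scale (SE 0.0902, adjusted p = 6.74e-18), and fell by 1.08 (SE 0.0868, adjusted p = 9.93e-15) in D2. *Sirt6* dropped from 10.2 to 15.5 CPM in D1-inputs to 5.38 to 6.79 CPM in D1-IPs, and from 11.6 to 13.7 CPM in D2-inputs to 4.49 to 7.08 CPM in D2-IPs. Its log2 fold change was -1.03 (SE 0.0714, adjusted p = 8.76e-17) in D1 and -1.12 (SE 0.0690, adjusted p = 1.85e-18) in D2. *Sirt7* dropped from 28.3 to 35.3 CPM in D1-inputs to 12.6 to 17.8 CPM in D1-IPs, and from 24.8 to 38.4 CPM in D2-inputs to 13.3 to 19.8 CPM in D2-IPs. Its log2 fold change was -1.04 (SE 0.0596, adjusted p = 1.67e-19) in D1 and -0.84 (SE 0.0574, adjusted p = 6.23e-17) in D2. For these 4 members no IP library reached any input of its line, which held for 48.3% of all genes in D1 and 44.3% in D2, in either direction. Exact permutation tests of mean log2 CPM (two-sided) gave p = 2.01e-06 in D1 (13 against 9 libraries) and p = 7.65e-07 in D2 (15 against 9) for each of the 4, the smallest p that these numbers allow. They relabelled all libraries of a line freely, without regard to stress group or to an IP and an input that share a pool of mice.

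*Sirt5* went the other way. It ran from 9.39 through 10.4 to 12.2 CPM in D1-IPs against 8.05, 8.89 and 9.79 CPM in D1-inputs, and from 8.73 through 10.0 to 12.4 CPM in D2-IPs against 6.17, 7.31 and 9.32 CPM in D2-inputs. In D1, 12 of 13 IPs, and in D2, 13 of 15 IPs, lay above every input. The rise was 0.27 on the log2 scale (SE 0.0608, adjusted p = 0.000113) in D1 and 0.44 (SE 0.0603, adjusted p = 1.22e-08) in D2. *Sirt3*, the most abundant mitochondrial member in IPs, held 21.9, 26.1 and 35.4 CPM (lowest, median, highest) in D1-IPs against 26.6, 30.4 and 33.5 CPM in D1-inputs, and 17.98, 22.6 and 28.1 CPM in D2-IPs against 27.4, 32.2 and 35.8 CPM in D2-inputs. It fell by 0.20 (SE 0.0649, adjusted p = 0.00541) in D1, where the groups overlapped, and by 0.46 (SE 0.0630, adjusted p = 1.8e-08) in D2, where 14 of 15 IPs lay below every input. *Sirt1* held 13.3, 15.1 and 17.5 CPM in D1-IPs against 15.5, 17.3 and 20.5 CPM in D1-inputs, a drop to 0.860 times the input (log2 fold change -0.22, SE 0.0696, adjusted p = 0.0044). In D2-IPs it held 14.02, 17.4 and 20.2 CPM against 13.97, 15.7 and 20.2 CPM in D2-inputs, with a log2 fold change of 0.07 (95% confidence interval -0.07 to 0.21, adjusted p = 0.347) and full overlap of the groups.

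A scaling by total counts moved the median of all genes to -0.23 in D1 and -0.21 in D2. Under it the log2 fold change of *Sirt5* in D1 was 0.08 (adjusted p = 0.265), and that of *Sirt1* in D2 turned to -0.06 (adjusted p = 0.461). In the control libraries alone, *Sirt3* (log2 fold change -0.09, adjusted p = 0.495) and *Sirt5* (0.17, adjusted p = 0.188) were not called in D1.

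**Figure D2:**
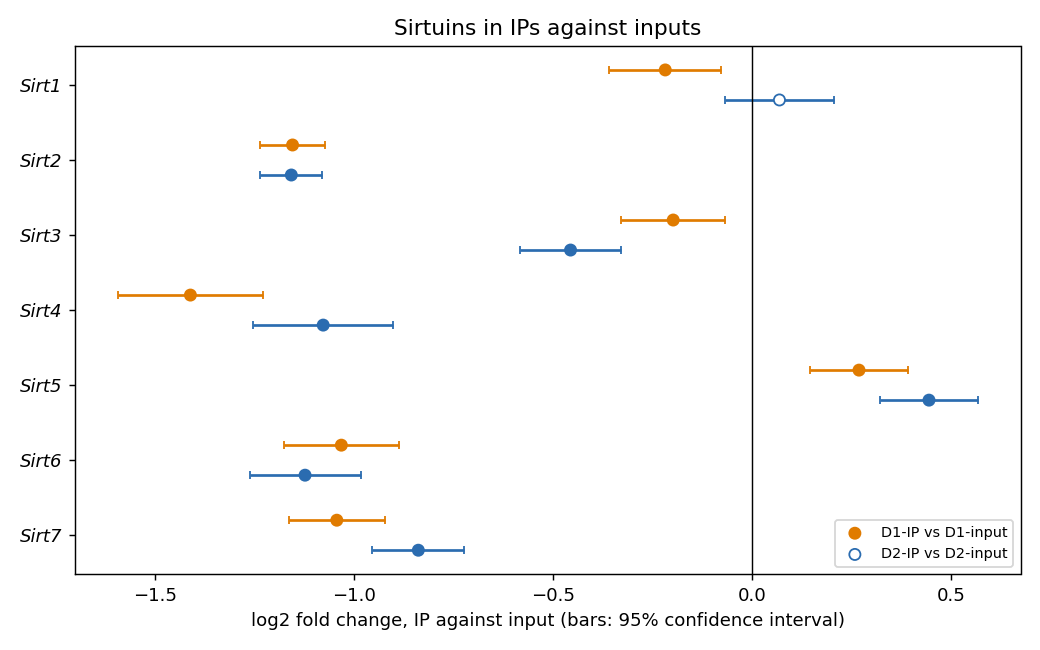
Log2 fold change of each sirtuin in IPs against inputs of the D1 line and the D2 line (x axis, mean of the 3 stress states), with 95% confidence intervals; filled points were called at an adjusted p under 0.05. *Sirt2*, *Sirt4*, *Sirt6* and *Sirt7* lie between -1.41 and -0.84 in both lines and *Sirt5* lies above 0.

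Over the 46 IPs and inputs, the genes whose log2 CPM followed *Sirt2* most closely were *Mbp* (r = 0.992), *Fth1* (0.990) and *Mobp* (0.989); Mbp and Mobp are proteins of myelin. These are Pearson correlations, given as a description, and the points fall into IPs and inputs, which sets much of each r. Within the 18 inputs *Sirt2* also followed the sum of the oligodendrocyte markers (r = 0.725), while r was 0.292 within the 28 IPs. In IPs that sum was 16.3% of the input in D1 and 12.5% in D2, whereas *Sirt2* stood at 0.449 and 0.448 times the input. The part of these cells in the fall of *Sirt2* was not tested. *Sirt4* was followed most closely by *Clasrp* (0.970), *Mirg* (0.966) and *Spag1* (0.966), *Sirt6* by *Ndor1* (0.968), *Hadh* (0.967) and *Rftn2* (0.966), and *Sirt7* by *Stxbp2* (0.969), *Rnf207* (0.966) and *Pagr1a* (0.966). *Sirt2*, *Sirt4*, *Sirt6* and *Sirt7* also followed each other, with r from 0.901 to 0.958. The closest genes were looser for *Sirt3* (*Aes* 0.842, *Rpl22* 0.838, *Gpr137* 0.835), *Sirt5* (*Zfp341* 0.823, *Dnajb1* 0.808, *Vac14* 0.808) and *Sirt1* (*Zdhhc20* 0.599, *Dzip3* 0.586, *Slc4a7* 0.582). *Rpl22* is the gene that carries the tag. After subtracting group means in the 28 IPs, the closest gene was *Ndufc1* for *Sirt3* (0.853), *Golim4* for *Sirt4* (0.797), *Uty* for *Sirt1* (0.772), *Bak1* for *Sirt2* (0.734), *Psmd9* for *Sirt7* (0.697), *Slu7* for *Sirt6* (0.691) and *Rangrf* for *Sirt5* (0.677). *Sirt2*, *Sirt4*, *Sirt6* and *Sirt7* no longer followed each other closely there, with r from -0.07 to 0.48.

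The change from input to IP differed between the lines for 3 of 7 members, beside 25.5% of all genes tested. Such a difference takes in the inputs of the lines as well as their IPs. The difference, D1 minus D2 on the log2 scale, was -0.29 for *Sirt1* (SE 0.0976, adjusted p = 0.0259), 0.26 for *Sirt3* (SE 0.0909, adjusted p = 0.0318) and -0.33 for *Sirt4* (SE 0.127, adjusted p = 0.0475). *Sirt7*, with -0.20 (adjusted p = 0.0667), and *Sirt5*, with -0.18 (adjusted p = 0.129), were not called. For *Sirt2* the difference was 0.00 with a 95% confidence interval of -0.11 to 0.12, and for *Sirt6* 0.09 with an interval of -0.11 to 0.29. With the pool of mice that an IP and an input share as a block, *Sirt1* was called, while *Sirt3* (adjusted p = 0.0575) and *Sirt4* (adjusted p = 0.114) were not. Leaving out 1 library at a time ended the call of *Sirt3* in 27 of 46 cases (adjusted p from 0.0117 to 0.105), that of *Sirt4* in 11 of 46 (0.012 to 0.0943) and that of *Sirt1* in 0 of 46 (0.00687 to 0.0448). In control libraries alone, none of the 3 was called. The calls also moved with scaling: under total counts *Sirt3* lost its call (adjusted p = 0.151) and *Sirt5* (-0.25, adjusted p = 0.0348) and *Sirt7* (-0.28, adjusted p = 0.0139) gained one, and *Sirt7* also gained one with RLE size factors (adjusted p = 0.041) and DESeq2 (0.0362).

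Compared directly, D1-IPs and D2-IPs differed little in sirtuins. *Sirt3* was higher in D1-IPs than in D2-IPs by 14.5%, while *Sirt7* stood at 0.876 and *Sirt1* at 0.901 times its level in D2-IPs. These 3 of 7 members were called over the mean of the stress states, beside 40.8% of 14224 genes tested, and none of the 7 reached a fold change of 1.5, which 7.66% of genes passed together with the adjusted p. The groups overlapped for all 7 members, and 2.6% of genes had groups without overlap.

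*Sirt3* held 26.1, 29.7, 23.0 and 35.4 CPM in D1-IP Con, 24.8, 21.9, 27.4 and 27.8 in D1-IP Res and 24.5, 24.0, 27.8, 27.2 and 23.1 in D1-IP Sus. In D2-IPs it held 25.3, 21.2, 23.3, 24.8 and 21.2 CPM in Con, 28.1, 17.98, 21.8, 24.3 and 22.4 in Res and 20.8, 22.6, 24.7, 22.8 and 21.5 in Sus. Of the 13 D1-IPs, 12 lay above the median of the D2-IPs, and 2 lay above all of them. The log2 fold change was 0.19 (SE 0.0618, adjusted p = 0.0125), and a permutation test of the 13 and 15 libraries gave p = 0.00275 (two-sided, 100000 relabellings).

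*Sirt7* held 17.8, 14.3, 16.3 and 16.4 CPM in D1-IP Con, 13.6, 15.7, 14.4 and 12.6 in Res and 13.4, 15.9, 14.8, 14.9 and 13.7 in Sus. In D2-IPs it held 16.6, 14.6, 18.05, 18.2 and 16.9 CPM in Con, 16.8, 16.3, 17.1, 18.6 and 15.3 in Res and 13.3, 18.6, 17.6, 15.2 and 19.8 in Sus. The D1-IPs above the median of the D2-IPs numbered 1 of 13. The log2 fold change was -0.19 (SE 0.0551, adjusted p = 0.00623; permutation test p = 0.0043).

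*Sirt1* held 13.8, 17.5, 15.6 and 15.1 CPM in D1-IP Con, 15.1, 17.2, 13.99 and 14.2 in Res and 16.5, 15.9, 17.1, 13.3 and 14.4 in Sus. In D2-IPs it held 14.02, 19.3, 18.1, 16.1 and 16.1 CPM in Con, 15.4, 20.2, 17.9, 17.4 and 14.4 in Res and 18.6, 17.6, 18.4, 15.02 and 14.9 in Sus. The groups overlapped broadly, with 1 of 13 D1-IPs above the D2-IP median. The log2 fold change was -0.15 (SE 0.0595, adjusted p = 0.0428; permutation test p = 0.0276). This call was the least firm: RLE size factors (adjusted p = 0.0517), no filter on low counts (0.0748) and a filter at a mean of 50 counts (0.0591) each ended it, as did leaving out any of 16 of the 28 libraries, with adjusted p from 0.0199 to 0.0927.

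*Sirt4* held 6.74, 5.22, 6.68 and 6.23 CPM in D1-IP Con, 5.55, 6.63, 6.26 and 5.52 in Res and 6.53, 7.60, 4.76, 7.57 and 6.42 in Sus. D2-IPs spread wider, with 5.18 to 8.59 CPM in Con, 6.05 to 9.08 in Res and 5.03 to 10.1 in Sus. Its log2 fold change was -0.22, with a 95% confidence interval of -0.42 to -0.03, but the adjusted p of 0.0578 missed the threshold, and leaving out any of 6 of the 28 libraries brought a call (adjusted p from 0.016 to 0.114). *Sirt2* did not differ by more than the interval of -0.08 to 0.07 around a log2 fold change of 0.00. The intervals were -0.08 to 0.15 for *Sirt5* and -0.10 to 0.17 for *Sirt6*, around 0.04 for each.

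Within a single stress state no sirtuin was called between D1-IPs and D2-IPs, beside 14% of genes in Con, 17.5% in Res and 17.6% in Sus. At an unadjusted p under 0.05, *Sirt3* passed in Con (log2 fold change 0.29, adjusted p = 0.0781), and *Sirt7* in Res (-0.27, adjusted p = 0.0531) and Sus (-0.23, adjusted p = 0.0801). *Sirt7* was called in Res by DESeq2 (adjusted p = 0.0436) and by edgeR on the libraries of that comparison alone (adjusted p = 0.0448). The cortical markers named above were 381 to 1349 CPM in D1-IPs against 21.2 to 292 in D2-IPs, and 6 of 8 oligodendrocyte markers were also called higher in D1-IPs (sums of 314 to 545 against 238 to 396 CPM), as were 6 of 6 astrocyte markers (47.6 to 95.8 against 37.9 to 64.2 CPM). The 4 cholinergic interneuron markers were all called lower. Mean sums in D1-IPs were also lower for microglia (12.4 against 16.1 CPM), endothelial (6.73 against 8.40) and GABAergic interneuron markers (129 against 139). The part of these cell types in the small differences between sirtuins was not tested.

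**Figure D3:**
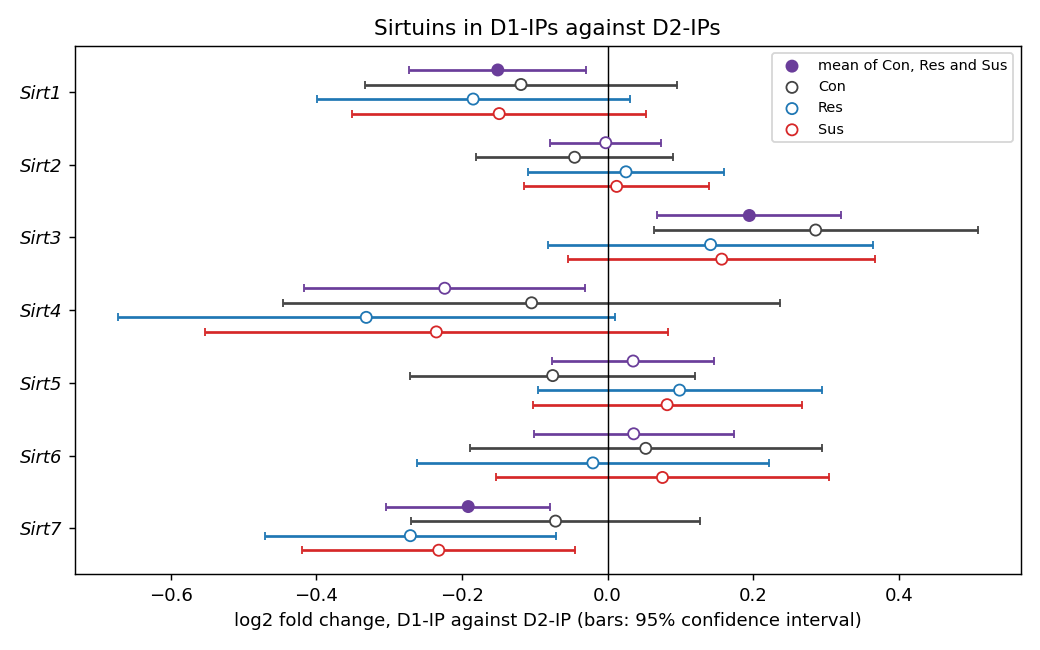
Log2 fold change of each sirtuin in D1-IPs against D2-IPs (x axis) over the mean of the stress states and within Con, Res and Sus, with 95% confidence intervals; filled points were called at an adjusted p under 0.05. Filled points are limited to the mean over stress states of *Sirt1*, *Sirt3* and *Sirt7*, and all lie within 0.2 of 0.

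**Figure D4:**
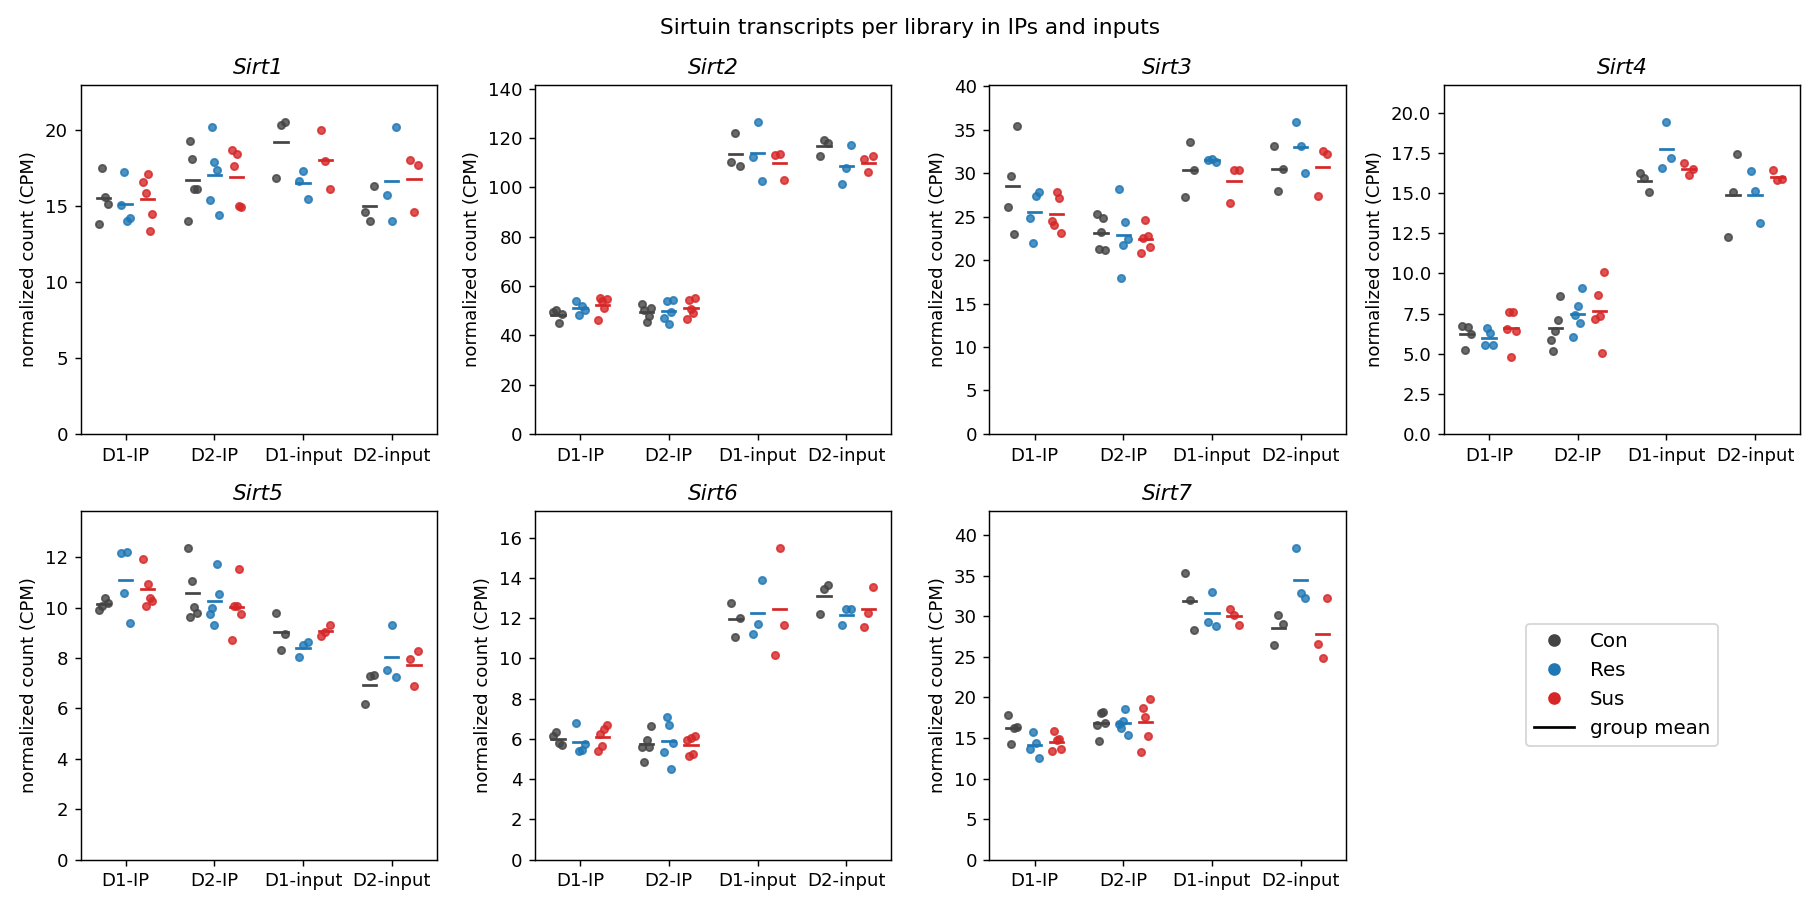
Normalized count (CPM, y axis) of each sirtuin in every library of D1-IPs, D2-IPs, D1-inputs and D2-inputs, colored by stress group, with group means as lines. The classes of IPs and inputs stand apart for *Sirt2*, *Sirt4*, *Sirt6* and *Sirt7*.

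The next question was whether defeat stress moved any sirtuin in D1-IPs, D2-IPs or inputs. No member passed the threshold that the study used for stress comparisons, an unadjusted p under 0.05, in any of the 6 comparisons of IPs, and none passed it in the 3 comparisons of inputs. The background was 5.34% of genes for D1 Sus vs Con, 2.11% for D1 Res vs Con, 4.23% for D1 Sus vs Res, 3.68% for D2 Sus vs Con, 3.02% for D2 Res vs Con and 1.66% for D2 Sus vs Res. In inputs it was 4.47% for Sus vs Con, 3.23% for Res vs Con and 5.54% for Sus vs Res. These comparisons share their Con, Res and Sus libraries with each other. Over the 42 values in IPs, log2 fold changes ran from -0.20 to 0.21, adjusted p-values by edgeR were 0.846 or higher, and 95% confidence intervals reached from -0.42 to 0.53, so that a rise of 44.0% lay at their upper edge.

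The lowest p in IPs belonged to *Sirt7* in D1 Res vs Con, with 12.6 to 15.7 CPM in Res against 14.3 to 17.8 in Con, a log2 fold change of -0.20 (SE 0.103, 95% confidence interval -0.41 to 0.01, adjusted p = 1). In a fit of only these 8 libraries it passed the unadjusted threshold (-0.21, adjusted p = 0.999), as it did without replicate 2 of D1-IP Con or of D1-IP Res. In D1 Sus vs Con *Sirt7* stood at -0.16, *Sirt3* at -0.17 and *Sirt2* at 0.11 (adjusted p = 0.846 for each). In D2-IPs *Sirt7* was level in all stress groups, with means of 16.9 ± 1.47 CPM (SD, n = 5) in Con, 16.8 ± 1.22 in Res and 16.9 ± 2.64 in Sus. The difference between D1-IPs and D2-IPs in the stress response of *Sirt7* was -0.20 for Res vs Con (95% confidence interval -0.48 to 0.08) and -0.16 for Sus vs Con (-0.43 to 0.11). None of the 21 such differences over the family passed an unadjusted p under 0.05, beside 1.82% of genes for Sus vs Con, 2.36% for Res vs Con and 2.03% for Sus vs Res.

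*Sirt1* was level across stress groups. Its means were 15.5 ± 1.53 CPM in D1-IP Con (n = 4), 15.1 ± 1.49 in Res (n = 4) and 15.4 ± 1.55 in Sus (n = 5), and 16.7 ± 2.04, 17.03 ± 2.26 and 16.9 ± 1.82 CPM in the D2-IPs (n = 5 each). The 95% confidence interval of Sus against Con was -0.22 to 0.21 in D1 and -0.18 to 0.22 in D2. *Sirt4* had the widest intervals of the family, with a log2 fold change of 0.21 (-0.11 to 0.53) for D2 Sus vs Con. *Sirt2* had the narrowest, with 0.11 (-0.03 to 0.24) in D1 and 0.05 (-0.08 to 0.18) in D2. *Sirt5* (0.08 and -0.08) and *Sirt6* (0.02 and -0.00) were also not called for Sus vs Con in D1 and D2.

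In inputs the lowest p was again that of *Sirt7*, in Sus vs Res (log2 fold change -0.16, SE 0.0799, adjusted p = 0.901), and the largest rise was 0.10 for *Sirt7* in Res vs Con. The former passed the unadjusted threshold without replicate 1 or 3 of D1-input Res or replicate 3 of D2-input Sus. Between inputs of the D1 and the D2 line no sirtuin was called, beside 0.0202% of 14820 genes. *Sirt5* held 9.79, 8.33 and 8.96 CPM in D1-input Con, 8.05, 8.53 and 8.65 in Res and 8.89, 9.04 and 9.29 in Sus. In D2-inputs it held 6.17, 7.31 and 7.31 CPM in Con, 7.53, 9.32 and 7.25 in Res and 7.94, 6.91 and 8.29 in Sus. All 9 D1-inputs lay above the D2-input median, with a log2 fold change of 0.22 (adjusted p = 0.728; exact permutation test p = 0.00214). The 95% confidence intervals of the other members spanned 0, with the widest at -0.01 to 0.31 for *Sirt1*.

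The last comparison asked what became of *Sirt1* and its relatives in the libraries labelled Sirt1-KO. *Sirt1* itself was not called: it held 15.2, 16.2, 13.2 and 10.2 CPM (replicates 1, 3, 4 and 5) against 13.1, 16.6, 14.8 and 14.4 CPM in D1-IP Con, normalized here within the 8 libraries. Only replicate 5 lay below all controls. The log2 fold change was -0.10 (SE 0.133, 95% confidence interval -0.39 to 0.19, adjusted p = 0.768), which bounds a fall of the count over the whole gene at 23.5%. An exact permutation test gave p = 0.629, where 4 against 4 libraries allow no p below 0.0286. The counts sum all exons, so the removal of a few exons from a transcript that is still made cannot be told apart from no removal, and these libraries are called by their label throughout.

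None of the other 6 sirtuins was called either, beside 1.66% of 13626 genes (226 genes). The groups overlapped for all 7 members, while 9.55% of genes had groups without overlap. *Sirt6* came nearest in size, with 5.86, 6.02, 6.64 and 7.49 CPM in the libraries labelled Sirt1-KO against 5.80, 6.01, 5.49 and 5.44 CPM in D1-IP Con. Of these, 3 of 4 lay above every control, with a log2 fold change of 0.19 (SE 0.117, 95% confidence interval -0.07 to 0.45, adjusted p = 0.442; exact permutation test p = 0.0571). *Sirt2* held 50.8, 45.5, 48.1 and 53.6 CPM against 46.6, 47.7, 42.7 and 46.2 CPM, where again 3 of 4 lay above every control (0.11, interval -0.04 to 0.26, adjusted p = 0.432; exact permutation test p = 0.171). *Sirt3* held 25.6, 26.1, 25.7 and 23.5 CPM, inside the wide range of the controls at 24.7, 28.1, 21.8 and 33.7 CPM (-0.10, interval -0.35 to 0.16). *Sirt7* held 14.9, 15.04, 14.2 and 14.2 CPM against 16.9, 13.5, 15.4 and 15.6 (-0.07, interval -0.26 to 0.11).

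*Sirt4* held 5.44, 5.34, 6.76 and 6.19 CPM against 6.38, 4.94, 6.33 and 5.92 CPM (0.01, interval -0.28 to 0.29). *Sirt5* held 7.72, 9.64, 9.56 and 9.63 CPM against 9.38, 9.52, 9.84 and 9.67 CPM (-0.07, interval -0.29 to 0.15). The intervals leave room for changes of up to 36.2% for *Sirt6* and 10.6% to 22.5% for *Sirt2*, *Sirt3*, *Sirt4* and *Sirt5*, in the direction of more RNA. Cortical markers summed to 812 to 1514 CPM in the libraries labelled Sirt1-KO and to 360 to 991 CPM in D1-IP Con, and D1-MSN markers to 896 to 1122 against 1192 to 1469 CPM. GABAergic interneuron markers summed to 139 to 166 against 101 to 133 CPM, and 3 tested cholinergic markers to 5.43 to 9.16 against 9.45 to 14.7 CPM. Sums of D2-MSN, general MSN, oligodendrocyte, astrocyte, microglia and endothelial markers overlapped between the groups, with lower means in the libraries labelled Sirt1-KO. Their part in these values was not tested, and the group and any difference in when its libraries were made cannot be told apart.

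**Figure D5:**
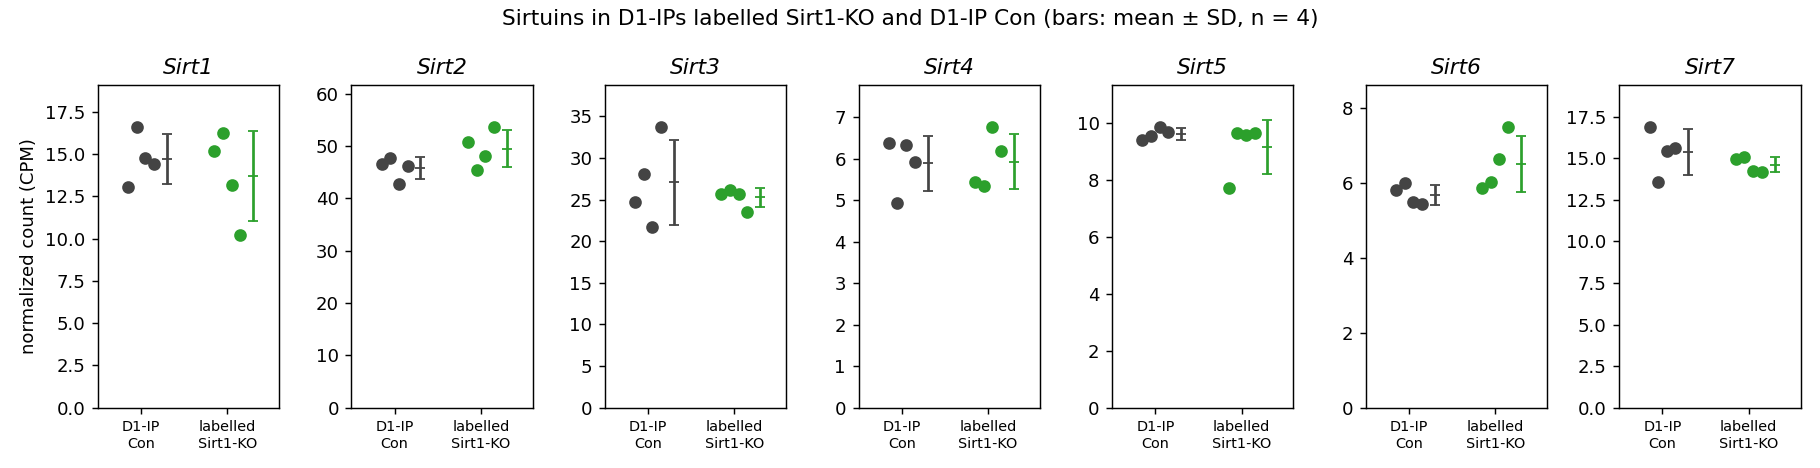
Normalized count (CPM, y axis) of each sirtuin in the 4 D1-IP Con libraries and the 4 D1-IPs labelled Sirt1-KO, with mean ± SD beside the points. *Sirt1* lies at 10.2 to 16.2 CPM in the libraries labelled Sirt1-KO and at 13.1 to 16.6 CPM in the controls.

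Genes around the sirtuins were read from lists of NAD synthesis, other NAD consumption, regulators and substrates of Sirt1, substrates of the mitochondrial sirtuins, and the zinc-dependent histone deacetylases, which are the other large deacetylase family. Over all lists, 60 of 65 genes were tested against inputs, and 49 were called in D1 (81.7%, beside 81.9% of all genes) and 51 in D2 (85%, beside 82.7% of all genes), so the counts of calls below stand near the background and are not a result about the lists. Of NAD synthesis, 9 of 11 genes were tested against inputs. In D1 2 rose and 5 fell, and in D2 3 rose and 5 fell (median log2 fold changes -0.33 and -0.28). *Nmnat2*, a neuronal NAD-making enzyme of axons, rose by 0.72 in D1 and 0.51 in D2, while *Nadk2* (-1.29 and -1.48), *Naprt* (-3.14 and -2.93) and *Nadk* (-0.33 and -0.28) fell. Among 4 tested genes of other NAD consumption, *Cd38*, an NAD-degrading enzyme best known from glia and immune cells, fell by 3.83 in D1 and 4.08 in D2, *Parp2* fell (-0.56 and -0.38) and *Parp1* rose (0.58 and 0.31), while *Sarm1* rose in D1 (0.29).

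Of 7 Sirt1 regulators, 3 rose and 2 fell in each line, beside the same background of 81.9% and 82.7%. *Elavl1*, which binds mRNAs, rose by 0.72 and 0.76, *Ccar2*, which encodes an inhibitor of Sirt1, by 0.51 and 0.54, and the repressor gene *Hic1* fell by 2.07 and 1.48. *Rps19bp1*, whose product activates Sirt1, rose by 0.59 in D1 and was called in D2 too. *Prkaa2*, a subunit of the energy sensor AMPK, fell by 0.45 in D2 and was not called in D1. Of 15 Sirt1 substrates, 6 rose and 6 fell in D1, and 5 rose and 7 fell in D2. *Foxo1* rose by 0.90 and 1.45 and *Crtc1* by 0.65 and 0.68, while *Rela* fell by 0.88 and 0.92 and *Hsf1* by 0.73 and 0.63.

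Of 14 tested substrates of mitochondrial sirtuins, 7 rose and 6 fell in each line, again beside 81.9% and 82.7% of all genes called. The fatty acid oxidation genes *Hadh* (-2.41 and -2.70) and *Acadl* (-2.63 and -2.96) fell, whereas *Ndufa9* of the respiratory chain rose (0.87 and 0.79), as did *Got2* (0.79 in D1) and *Sdha* (0.75 in D2). *Got2* and *Sdha* were each called in both lines. Of 11 zinc-dependent deacetylases, 3 rose and 5 fell in D1, and 3 rose and 7 fell in D2, beside that background, with *Hdac2* (0.95 and 1.00) and *Hdac11* (0.59 and 0.54) up and *Hdac7* (-2.12 and -1.68) and *Hdac10* (-1.47 and -1.42) down. All calls given here with a fold change were at an adjusted p of 1.43e-05 or lower by edgeR.

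Between D1-IPs and D2-IPs, 22 of the 60 tested genes were called (36.7%, beside 40.8% of all genes). The lists gave 2 calls among 9 genes of NAD synthesis (*Nmnat2* 0.13, *Nmnat3* -0.50), 3 among 4 of other NAD consumption (*Parp1* 0.15, *Sarm1* 0.17, *Parp2* -0.16), 1 among 7 regulators (*Prkaa2* 0.32), 8 among 15 Sirt1 substrates (3 higher, with *Acss2* 0.27 and *Ppargc1a* 0.26, and 5 lower, with *Foxo1* -0.49 and *Per2* -0.32), 5 among 14 mitochondrial substrates (4 higher, with *Pdha1* 0.23, *Acadl* 0.35 and *Hadh* 0.30, and *Idh2* lower, -0.32) and 3 among 11 deacetylases (*Hdac9* 0.43, *Hdac5* 0.12, *Hdac7* -0.39), as log2 fold changes. In the libraries labelled Sirt1-KO, the single call among 58 tested genes of these lists (1.72%, beside 1.66% of all genes) was *Glud1*, a mitochondrial enzyme of glutamate breakdown, which fell by 0.28 (SE 0.0523, adjusted p = 0.0284). None of the 15 Sirt1 substrates was called in this fit, and their median log2 fold change was -0.06, against 0.00 for all genes. With the replicate number as a block, 6 of the 58 genes were called (10.3%, edgeR adjusted p from 0.000396 to 0.0427). They were *Hdac9*, *Parp1*, *Glud1* and the Sirt1 substrates *Foxo1*, *Crtc1* and *Acss2*. The share of all genes called in that fit is not given here, and 0 of 3 library pairs with one number correlated over 0.1.

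In the stress comparisons, called at the unadjusted threshold, 0 to 3 of the 60 tested list genes passed in each. In D1-IPs, 3 were called for Sus against Con (5%, beside 5.34% of all genes), 0 for Res against Con (beside 2.11%) and 3 for Sus against Res (5%, beside 4.23%). For Sus against Con these were *Acss2* (log2 fold change 0.23), *Hdac9* (0.22) and *Nmnat3* (-0.30), and for Sus against Res *Per2* (0.14), *Crtc1* (-0.12) and *Cd38* (1.26). In D2-IPs, 2 were called for Sus against Con (3.33%, beside 3.68%), 2 for Res against Con (3.33%, beside 3.02%) and 3 for Sus against Res (5%, beside 1.66%). These were *Acadl* (0.44) and *Cd38* (1.34) for Sus against Con, *Acadl* (0.40) and *Hdac10* (-0.39) for Res against Con, of which the replicate block left *Acadl* alone, and *Parp2* (0.25), *Rps19bp1* (0.22) and *Hdac6* (0.09) for Sus against Res. In inputs, 3 were called for Sus against Con (5%, beside 4.47%), 3 for Res against Con (5%, beside 3.23%) and 2 for Sus against Res (3.33%, beside 5.54%). For Sus against Con these were *Arntl* (-0.19), *Nmnat2* (0.09) and *Hdac10* (-0.25), for Res against Con *Trp53* (0.14), *Nmnat3* (-0.28) and *Nmnat2* (0.08), and for Sus against Res *Hdac10* (-0.35) and *Sarm1* (-0.14). None of these genes reached an adjusted p under 0.05 by edgeR (0.846 or higher in each comparison).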

How the data were processed

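RNA-seq counts of 50 libraries from mouse NAc were used, with groups taken from the deposited labels. The authors selected poly-A RNA, made stranded libraries, used cutadapt to trim reads, STAR for alignment to mm10 and, for IPs and inputs, HTSeq for counting; a counter for the Sirt1-KO set is not named. What was deposited are whole-number counts per gene in each library, not normalized. Versions and the annotation are not given in the sources used here. Of the columns, 2 had no matching sample and were not used here, and 5 entries without a gene name were left out. These entries held 18.02% to 28.27% of reads in IPs, 35.89% to 39.99% in inputs and 19.18% to 23.79% in libraries labelled Sirt1-KO. Depth was 21591075 to 31009626 counts in IPs, 18384265 to 28179940 in inputs and 22174187 to 31785984 in libraries labelled Sirt1-KO. No 2 of the 76 replicate pairs were duplicates (chi-square per gene 3.51 to 98.7).

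The package edgeR 4.0.16 (R 4.3.3) gave TMM factors, CPM and quasi-likelihood tests after filterByExpr (minimum count 10, minimum total count 15) in 4 models: 28 IPs, 46 IPs and inputs, 18 inputs, and 8 libraries for Sirt1-KO. Stress comparisons used the threshold of the study, an unadjusted p under 0.05, and the others at an adjusted p under 0.05. RPKM used GENCODE vM21 exon lengths. Log2 CPM for correlations and permutation tests used a prior count of 2. P-values measure the spread between libraries of 2 pooled mice. Alternatives were RLE factors, other filters, DESeq2 1.42.0, fewer libraries, a replicate block, other lengths and leaving out each library. Total-count scaling was added after the data were seen. Tests were tried on simulated data. Figures used Python 3.11.15 and matplotlib 3.10.9.

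IPs and inputs of one number share it in their titles, and the protocol saves the input from the same homogenate, so the number marks a shared pool of mice. Their deviations from group means correlated by 0.08 on average (18 pairs, 9 over 0.1, range -0.36 to 0.67). Across stress groups, numbers paired D2-IP Con with Res by correlations alone (5 of 5 pairs over 0.1, range 0.16 to 0.32), as they did D1-input Sus with Con and with Res (3 of 3 pairs each), and the count of sirtuins called stayed at 0 with the replicate block.

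Members and lists were chosen with earlier results of these data known. All 7 members were named in every comparison, and of each list up to 4 called genes with the smallest p. For likeness, the 3 genes with the highest r over 46 libraries and 1 over the 28 IPs were named, out of those averaging 50 counts or more.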

Additional observations from a re-analysis of the deposited data

Results flagged for a closer look

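The fold change of *Sirt1*, *Sirt3* and *Sirt4* from input to IP differed between the D1 and the D2 line, by -0.29, 0.26 and -0.33 on the log2 scale, in a test of the difference itself (edgeR, adjusted p = 0.0259, 0.0318 and 0.0475). These are 3 of 28 differences of effects tested over the family. *Sirt5* in replicate 1 of the libraries labelled Sirt1-KO, at 7.72 CPM, lay far below the other 3, at 9.56 to 9.64 CPM. This was the single such value in 49 groups of 4 or 5 libraries looked at, where chance alone marks about 1 in 20.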

How the results depend on the processing

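Of 1008 values of single sirtuins under other settings, 975 kept their call, 24 lost it, 9 gained it and 0 reversed. The counts of called members that moved by over 1.5 times were as follows. With a fold change over 1.5 required, 0 were called for D1-IP vs D2-IP, 4 for D1-IP vs D1-input and 0 for the difference of IP vs input between lines. For that difference, 1 was called with the replicate block and 0 in control libraries. The replicate block changed no other count. DESeq2 and the libraries compared alone each gave 1 for D1-IP vs D2-IP in Res, the latter also 1 for D1-IP Res vs Con, and no filter on low counts gave 1 for inputs Sus vs Res. The longest transcript length changed 18 of 42 ranks of levels. Leaving out 1 library at a time gave 7 to 7 for D1-IP vs D1-input, 6 to 6 for D2-IP vs D2-input, 2 to 4 for D1-IP vs D2-IP, 1 to 4 for the difference between lines, and 0 to 1 or 0 to 0 for all others. The counts of 1 for the difference came without D1-IP Con 2, D2-IP Sus 5, D1-input Con 1, D1-input Res 2 or D2-input Con 1. A count of 1 came without D1-IP Con 2 or 3 or D1-IP Res 2 for D1-IP Res vs Con, without D1-IP Con 2 or 3 or D1-IP Sus 1 for D1-IP Sus vs Con, without D2-IP Sus 4 for D2-IP Sus vs Con, without D1-input Res 1 or 3 or D2-input Sus 3 for inputs Sus vs Res, and for D1-IP vs D2-IP without D1-IP Con 3 in Con, D1-IP Res 2 or D2-IP Res 5 in Res and D2-IP Sus 1 in Sus. The call of *Sirt1* between D1-IPs and D2-IPs was lost without D1-IP Con 1, 3 or 4, Res 1, 3 or 4 or Sus 4 or 5, or D2-IP Con 2 or 3, Res 2, 3 or 4 or Sus 1, 2 or 3, and *Sirt4* gained one without D1-IP Sus 2 or 4 or D2-IP Con 1 or 2, Res 1 or Sus 4. Of 66 pairs of IPs of different groups with one number, 37 correlated over 0.1 (mean r 0.105). With different numbers 56 of 260 did (mean r -0.0267). For inputs of different groups these were 16 of 45 (mean r -0.0195) and 34 of 90 (mean r 0.0094). Every pair with one number passed 0.1 in 1 of 15 pairs of IP groups, D2-IP Con with Res, and in 2 of 15 pairs of input groups. Elsewhere not every pair passed it, and whether a number marks a shared batch was not tested. For the gene lists, the replicate block raised the calls in the libraries labelled Sirt1-KO from 1 to 6, where 0 of 3 pairs passed 0.1. It moved them from 10 to 15 for D1-IP vs D2-IP in Res, from 22 to 25 for the mean of the stress states and from 20 to 15 for the difference between lines. Stress calls moved too: *Foxo1* was added for D1-IP Sus vs Con, and *Nr1h2* took the place of *Per2* for D1-IP Sus vs Res. The shares of all genes called in these fits are not given here.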
